A study of Mus musculus with 12 samples.

Results

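The interferon response genes are 45 genes that cells switch on when interferon binds its receptors. They were chosen by name, as the rows of the count table with these 45 symbols among 54429 entries, and all 45 were found. Their levels were followed across 12 RNA sequencing libraries from brain punches of C57BL/6 mice, 3 libraries in each of 4 groups. These were early social isolated BLA, group-housed BLA, early social isolated VTA and group-housed VTA. The design text gives the BLA libraries as male and the VTA libraries as female, so brain region and sex change together and cannot be told apart. The labels give no age, and neither the number of animals behind a library nor any pooling. The p-values therefore measure the spread between libraries, which may be technical. In every group the punches were bulk tissue carried through removal of ribosomal RNA, with no treatment other than housing named.

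Interferons are secreted proteins that warn neighbouring cells of infection. Type I interferons activate a complex with STAT2 and IRF9 that binds a short DNA element, the interferon-stimulated response element (ISRE). Interferon gamma acts through another element, the gamma-activated site (GAS). The genes switched on include RNA sensors, enzymes that stop viral translation, the ubiquitin-like protein ISG15, and GTPases that attack the compartments of intracellular pathogens. In the brain, microglia, astrocytes, endothelial cells and neurons can all answer interferon, and a low level of many of these genes is present without infection.

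Promoters of the genes were read from RefSeq for the GRCm38.p6 build, from 250 bases before to 50 bases after each start site, and 33 of the 45 genes had an entry. The ISRE core was searched as GAAANNGAAA and GAS as TTCNNNGAA, each on both strands. At least 1 ISRE core lay in the promoters of 21 of the 33 genes (63.6%), against 3.99% of 27025 genes with a promoter in the table. GAS lay in 11 of the 33 (33.3%), against 9.55% of all genes. A longer form of the ISRE, GAAANNGAAACT, which contains the core, lay in 13 of the 33 (39.4%) and in 0.3% of all genes. A match is a description of the letters and does not show that a factor binds there. The promoters of Ifit1 (chr19:34640639-34640938), Ifit3 (chr19:34583279-34583578), Ifit3b (chr19:34607707-34608006) and Stat2 (chr10:128270248-128270547), all on the plus strand, are printed as examples that carry the core. The 3 Ifit genes were among the members with the largest difference between BLA and VTA, and Stat2 was the member that differed in the other direction. Ifit2 and Oasl1 differed more (log2 fold change, BLA over VTA, of -1.74 and -1.82). Their promoters held no ISRE core and are not printed. Capitals mark the ISRE core, read here on the opposite strand.
Ifit1: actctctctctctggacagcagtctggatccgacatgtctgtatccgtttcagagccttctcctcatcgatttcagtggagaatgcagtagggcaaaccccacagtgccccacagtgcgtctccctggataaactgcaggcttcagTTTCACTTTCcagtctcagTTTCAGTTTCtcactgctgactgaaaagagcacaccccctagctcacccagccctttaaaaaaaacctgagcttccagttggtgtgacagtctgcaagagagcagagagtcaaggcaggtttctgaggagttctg
Ifit3: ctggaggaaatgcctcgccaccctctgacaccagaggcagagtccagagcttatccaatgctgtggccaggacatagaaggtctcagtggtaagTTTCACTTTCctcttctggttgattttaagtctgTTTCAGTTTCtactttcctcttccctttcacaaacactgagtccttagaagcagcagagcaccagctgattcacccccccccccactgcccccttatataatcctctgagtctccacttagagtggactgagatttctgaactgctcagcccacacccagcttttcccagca
Ifit3b: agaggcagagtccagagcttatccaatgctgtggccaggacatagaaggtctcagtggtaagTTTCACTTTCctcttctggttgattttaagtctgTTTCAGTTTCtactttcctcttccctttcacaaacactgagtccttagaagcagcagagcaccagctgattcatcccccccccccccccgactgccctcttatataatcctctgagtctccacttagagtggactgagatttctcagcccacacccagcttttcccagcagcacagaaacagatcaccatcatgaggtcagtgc
Stat2: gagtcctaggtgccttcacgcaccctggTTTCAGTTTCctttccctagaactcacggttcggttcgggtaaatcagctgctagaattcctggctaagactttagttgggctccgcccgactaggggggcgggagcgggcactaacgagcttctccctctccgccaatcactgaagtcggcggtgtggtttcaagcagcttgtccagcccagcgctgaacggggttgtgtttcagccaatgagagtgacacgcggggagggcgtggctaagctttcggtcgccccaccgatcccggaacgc
Ifit1 had ISRE cores starting 104 and 85 bases before the start site, Ifit3 at 156 and 122 bases, and Ifit3b at 188 and 154 bases. In each of these 3 genes the core farther from the start site read TTTCACTTTC and the nearer one TTTCAGTTTC. Stat2 had a single core, TTTCAGTTTC, starting 222 bases before its start site.

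Total counts per library ranged from 28278708 to 69276892. Levels are given as CPM, read counts scaled to library size with trimmed-mean (TMM) factors over the 12 libraries, and 3 counts in a library, the limit that a count of 0 allows, correspond to 0.0357 to 0.182 CPM (counting error only). Markers matched the punched regions: dopamine neuron markers summed to 102.5 to 139.1 CPM in BLA libraries and 886.1 to 1856 CPM in VTA libraries. Markers of cortical and amygdalar glutamatergic neurons summed to 1762 to 3372 CPM in BLA libraries and 244.4 to 998.4 CPM in VTA libraries. The labels name the tissue of all 12 libraries as cerebrum. In BLA, reads from ribosomal RNA loci took 18.58% of the total of isolated library 3, 28.55% of group-housed library 1 and 41.75% of group-housed library 2. They took at most 1.57% in the other 9 libraries of the series. Choroid plexus markers summed to 286.7 CPM in isolated VTA library 1 and 3587 CPM in isolated VTA library 3, against at most 65.85 CPM in the other libraries. Isolated VTA library 3 also held the highest VTA level of cortical and amygdalar markers, 998.4 CPM.

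The 45 genes were expressed at low to moderate levels in both regions. Of these, 27 lay at 1 CPM or more in every library, 8 lay under 1 CPM in every library, and 6 had at least 1 library with a count of 0. Summed over the 45 genes, the level was 137.4, 143.5 and 146.2 CPM in the isolated BLA libraries and 142.9, 162.1 and 166.5 CPM in the group-housed BLA libraries. In VTA it was 237.3, 244.6 and 271.2 CPM in the isolated libraries and 241.5, 261.3 and 267.1 CPM in the group-housed libraries. Each BLA library thus lay below each VTA library.

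Compared per kilobase of exon (GENCODE M21 lengths), the highest mean level over the 12 libraries belonged to Ifi27, a small membrane protein, at 12.7 CPM per kb. Ifitm3, which blocks the fusion of viruses with endosomes, followed at 7.17 CPM per kb. Ifit2, a tetratricopeptide-repeat protein of the IFIT family, had 4.92 CPM per kb, Lgals3bp, a secreted glycoprotein, 3.75 CPM per kb and Stat2, the signal transducer of type I interferon, 3.64 CPM per kb. The lowest was Oas3, an oligoadenylate synthetase, at 0.0165 CPM per kb. The heat map of all members by library shows lower values in BLA in most rows, although the libraries of the regions overlap at 19 of the 45 genes.

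**Figure D1:**
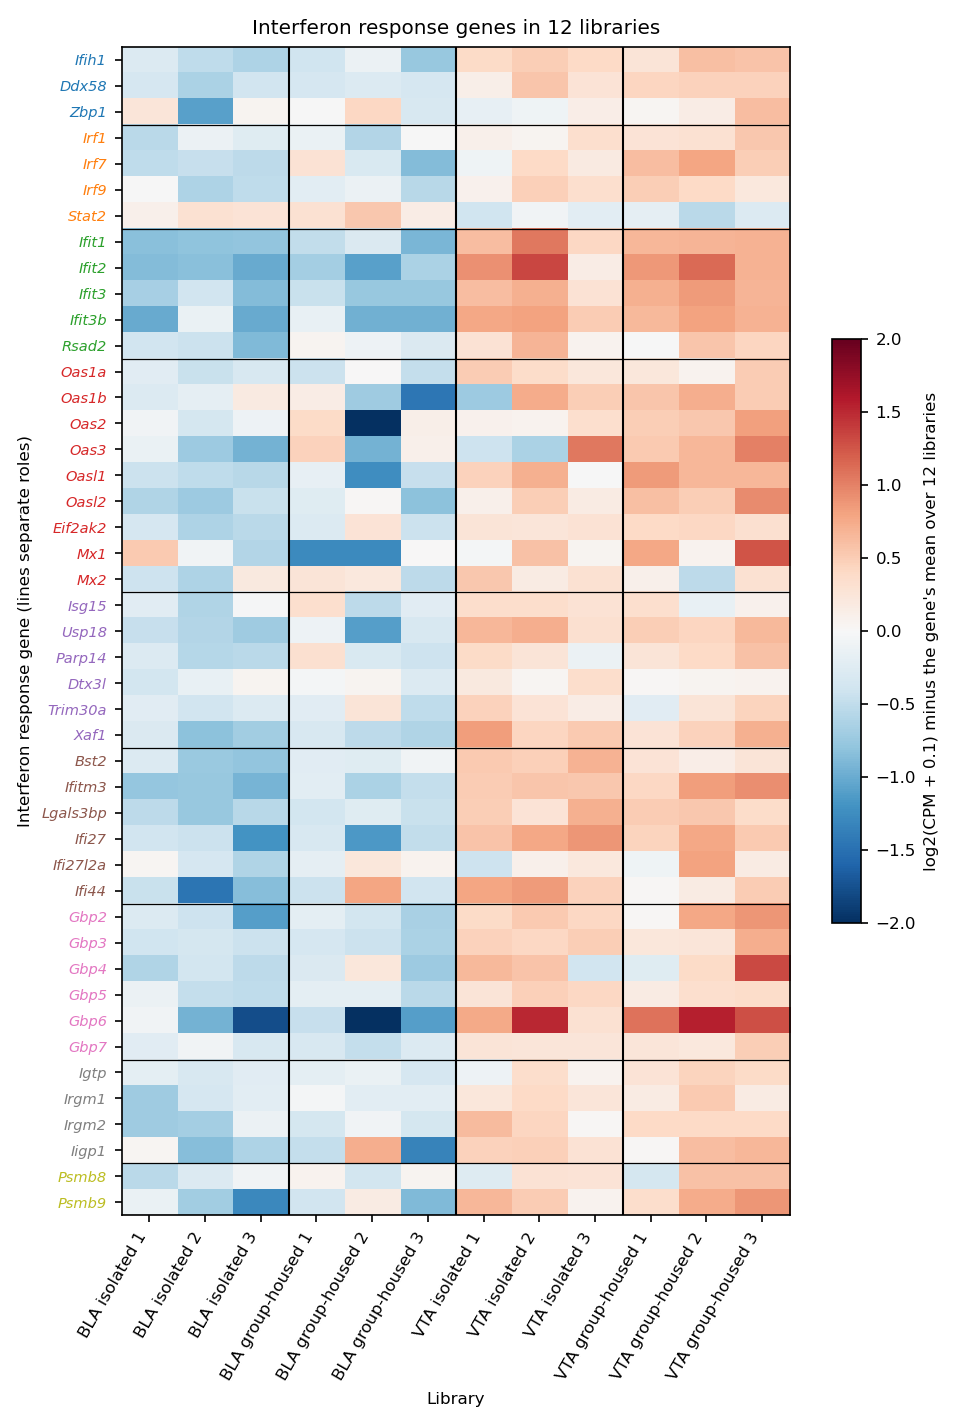
Heat map of the 45 interferon response genes (rows, grouped by role) in the 12 libraries (columns, isolated left of group-housed and BLA left of VTA). Colour gives log2(CPM + 0.1) minus the gene's mean over the 12 libraries, and most rows are blue (below the mean) in BLA and red (above it) in VTA, with Stat2 the other way round.

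Between BLA and VTA the genes differed almost all in one direction. Of the 45 genes, 44 passed the filter on low counts, and 43 of these had a fold change below 0, as did 51.5% of all genes tested. In the edgeR quasi-likelihood test with Benjamini-Hochberg adjustment over all genes, 34 passed as lower in BLA and 1, Stat2, as higher. The background is wide: 47.7% of the 25009 genes tested passed, 24.1% as lower and 23.7% as higher in BLA. The median log2 fold change, BLA over VTA, was -0.81 over the 44 genes and -0.02 over all genes tested. The 6 BLA and 6 VTA libraries did not overlap at 26 of the 45 genes, BLA lying below at 25 and above at Stat2, against 14.1% of all genes with BLA below and 12.9% with BLA above. The fold change was under -1 on the log2 scale in 15 genes, between -1 and -0.5 in 21, between -0.5 and 0 in 7 and above 0 in 1. In bulk tissue, fewer cells of a type and less RNA per cell cannot be told apart.

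**Figure D2:**
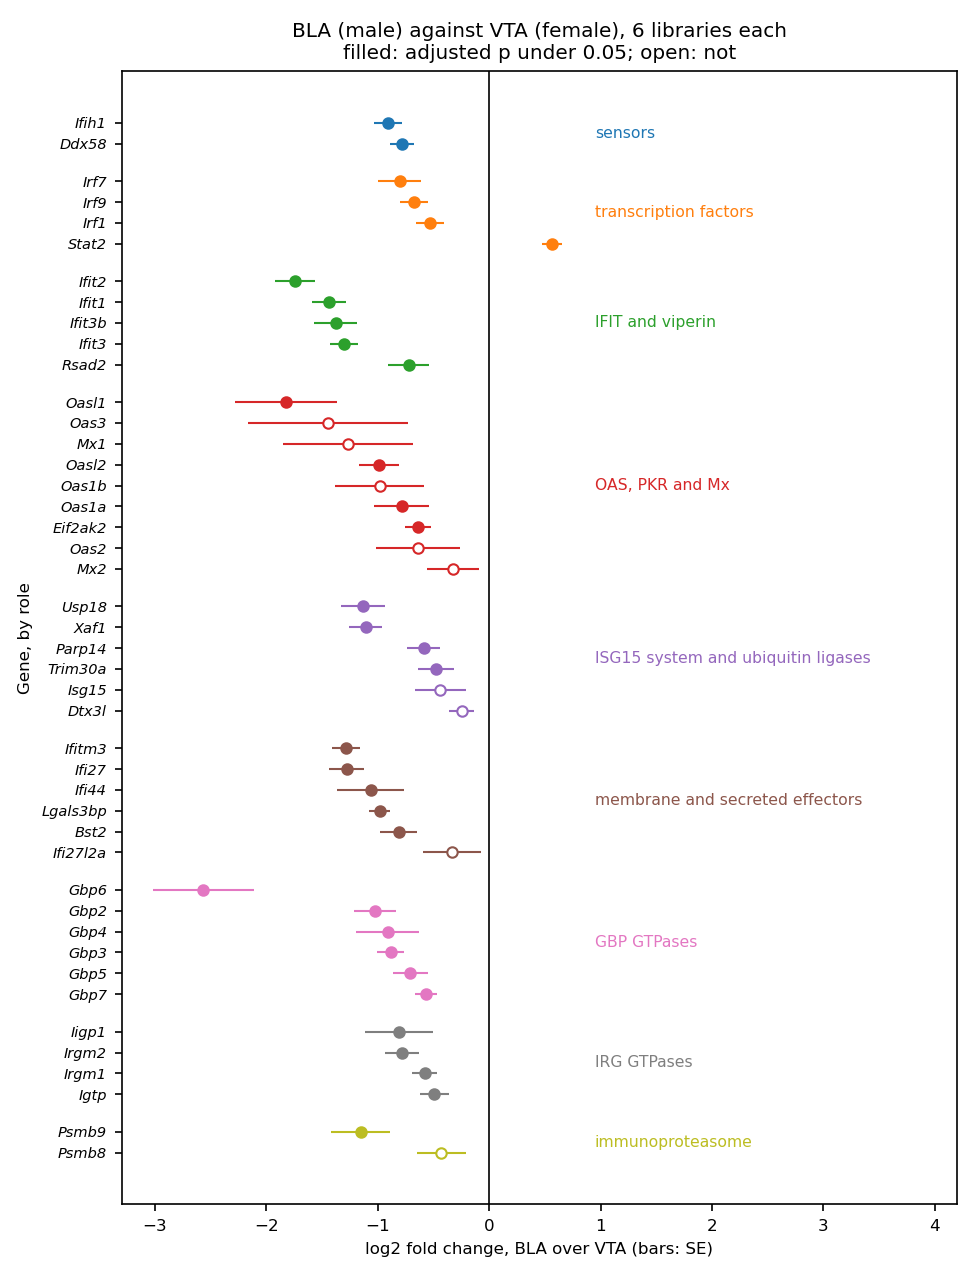
Log2 fold change, BLA over VTA, of the 44 interferon response genes that passed the filter (points, with SE as bars), grouped by role and coloured by it. Filled points had an adjusted p under 0.05, and 43 of the 44 lie left of 0, with Stat2 at 0.56 on the right.

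Among the sensors, which detect foreign nucleic acid in the cytosol, both genes tested were lower in BLA. Ifih1, which encodes the RNA sensor MDA5, averaged 4.36 ± 0.72 CPM in BLA and 8.11 ± 0.73 CPM in VTA (SD, n = 6 each), a log2 fold change of -0.91 (SE 0.13). Ddx58, which encodes RIG-I, averaged 4.55 ± 0.39 CPM in BLA and 7.82 ± 0.85 CPM in VTA, with a log2 fold change of -0.78 (SE 0.11). The groups did not overlap at either gene, against 14.1% of all genes with BLA below. Zbp1, a sensor of Z-form nucleic acid, had 0 to 8 counts in BLA libraries and 4 to 19 counts in VTA libraries and was not tested.

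The 4 transcription factors split. Stat2 ran from 22.7 CPM through a median of 25.8 CPM to 30.8 CPM in BLA, and from 14.5 CPM through 17.8 CPM to 20.1 CPM in VTA. It was higher in every BLA library than in any VTA library, with a log2 fold change of 0.56 (SE 0.09, edgeR adjusted p = 0.000115). Irf9, the DNA-binding partner of STAT2, went the other way, at a log2 fold change of -0.67. Irf7, which drives the second wave of interferon production, and Irf1, which answers interferon gamma, were also lower in BLA, at -0.80 and -0.53. Both lost the call in the contrast of isolated BLA with isolated VTA libraries.

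The IFIT genes, whose proteins bind foreign RNA and block its translation, and Rsad2, which encodes the antiviral enzyme viperin, were all lower in BLA, 5 of 5. The 4 IFIT genes are neighbours on chromosome 19 (mm10), from the start of Ifit2 at 34550694 to the end of Ifit1 at 34650009. Ifit2 ran from 7.45 CPM through a median of 8.80 CPM to 10.3 CPM in BLA, and from 17.8 CPM through 29.7 CPM to 40.5 CPM in VTA. The highest BLA library was below the lowest VTA library, isolated library 3, and the log2 fold change was -1.74 (SE 0.18, edgeR adjusted p = 8.36e-06). Ifit1, whose 2 ISRE cores are shown above, ran from 1.51 through 1.64 to 2.36 CPM in BLA and from 3.90 through 4.69 to 6.15 CPM in VTA. Its log2 fold change was -1.44 (SE 0.16, edgeR adjusted p = 2.91e-06).

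Ifit3, an IFIT protein that stabilises IFIT1, had the smallest p of all members. It ran from 2.79 through 3.15 to 3.96 CPM in BLA and from 6.36 through 8.45 to 9.46 CPM in VTA, with no overlap. The log2 fold change was -1.30 (SE 0.13, edgeR adjusted p = 1.07e-06). Ifit3b, its close copy, gave -1.38 (SE 0.19), but 51.2% of the 50-base words of Ifit3 also occur in Ifit3b, so reads could be split or dropped between them. Rsad2 overlapped between regions, at 1.45 ± 0.33 CPM in BLA and 2.37 ± 0.46 CPM in VTA, with a log2 fold change of -0.72 (SE 0.18). Its call was lost in the contrast of group-housed BLA with group-housed VTA libraries.

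Of the 9 genes of the oligoadenylate synthetase (OAS), PKR and Mx group, all had a fold change below 0 and 4 passed the test as lower in BLA. These were Eif2ak2, Oasl2, Oas1a and Oasl1, a share of 44.44%. Of all genes tested, 47.7% passed, 24.1% as lower in BLA. The call for Oas1a was lost in 3 of 22 alternative analyses, among them both contrasts within a housing condition. That for Oasl1 was lost in 1 of the 22, the contrast of isolated BLA with isolated VTA libraries. Oas1a also shares sequence with Oas1g, as given below. Eif2ak2 encodes PKR, the kinase that stops translation on sensing double-stranded RNA. It had 5.99 to 11.1 CPM in BLA and 10.9 to 12.4 CPM in VTA, the groups overlapping only through group-housed BLA library 2, and its log2 fold change was -0.64 (SE 0.11). Oasl2, an OAS-like protein, had a log2 fold change of -0.99 (SE 0.18). Oasl1, which restrains translation of IRF7, fell to 0.064 CPM on average in BLA against 0.253 CPM in VTA, from at most 4 counts in a BLA library. The 5 that did not pass, Oas1b, Oas2, Oas3, Mx1 and Mx2, had at most 130 counts in any library and log2 fold changes from -1.44 to -0.33. Oas1a and Oasl1, which passed, had at most 61 and 23 counts in any library. The part of low counts in these calls was not tested. The annotation lists Oas1b and Mx2 as polymorphic pseudogenes.

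In the group of ISG15 and ubiquitin ligases, all 6 genes had a fold change below 0. Of these, 4 passed the test as lower in BLA, against 24.1% of all genes tested. The 4 were Usp18 (-1.13 on the log2 scale), Xaf1 (-1.11), Parp14 (-0.59) and Trim30a (-0.47). Usp18 removes ISG15 from proteins and dampens receptor signalling, and Xaf1 antagonises an inhibitor of cell death. Isg15 itself, the ubiquitin-like modifier, averaged 0.65 ± 0.19 CPM in BLA and 0.88 ± 0.13 CPM in VTA and did not pass (edgeR adjusted p = 0.133). Dtx3l, a ubiquitin ligase, did not pass either, at -0.25 (SE 0.11). The call for Trim30a was lost in 8 of 22 alternative analyses, with log2 fold changes from -0.67 to -0.35 over all 22.

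All 6 membrane and secreted effectors had a fold change below 0. Of these, 5 passed the test as lower in BLA, against 24.1% of all genes tested. Ifitm3 ran from 2.25 through 2.67 to 3.78 CPM in BLA and from 5.86 through 6.45 to 8.39 CPM in VTA, so that the groups stood apart. Its log2 fold change was -1.28 (SE 0.13, edgeR adjusted p = 1.33e-06). Lgals3bp ran from 5.91 through 7.15 to 8.48 CPM in BLA and from 12.2 through 14.2 to 16.6 CPM in VTA, again without overlap, at -0.98 (SE 0.10, edgeR adjusted p = 1.13e-06). Ifi27 ran from 7.20 through 12.04 to 13.2 CPM in BLA and from 22.6 through 26.5 to 30.7 CPM in VTA, at -1.28 (SE 0.16, edgeR adjusted p = 2.55e-05). Bst2, which encodes tetherin and holds budding virus at the cell surface, gave -0.81 (SE 0.16), and Ifi44 gave -1.06 (SE 0.30). Both of these calls were lost in the contrast of group-housed BLA with group-housed VTA libraries. Ifi27l2a, a relative of Ifi27, did not pass, at -0.33 (SE 0.26).

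**Figure D3:**
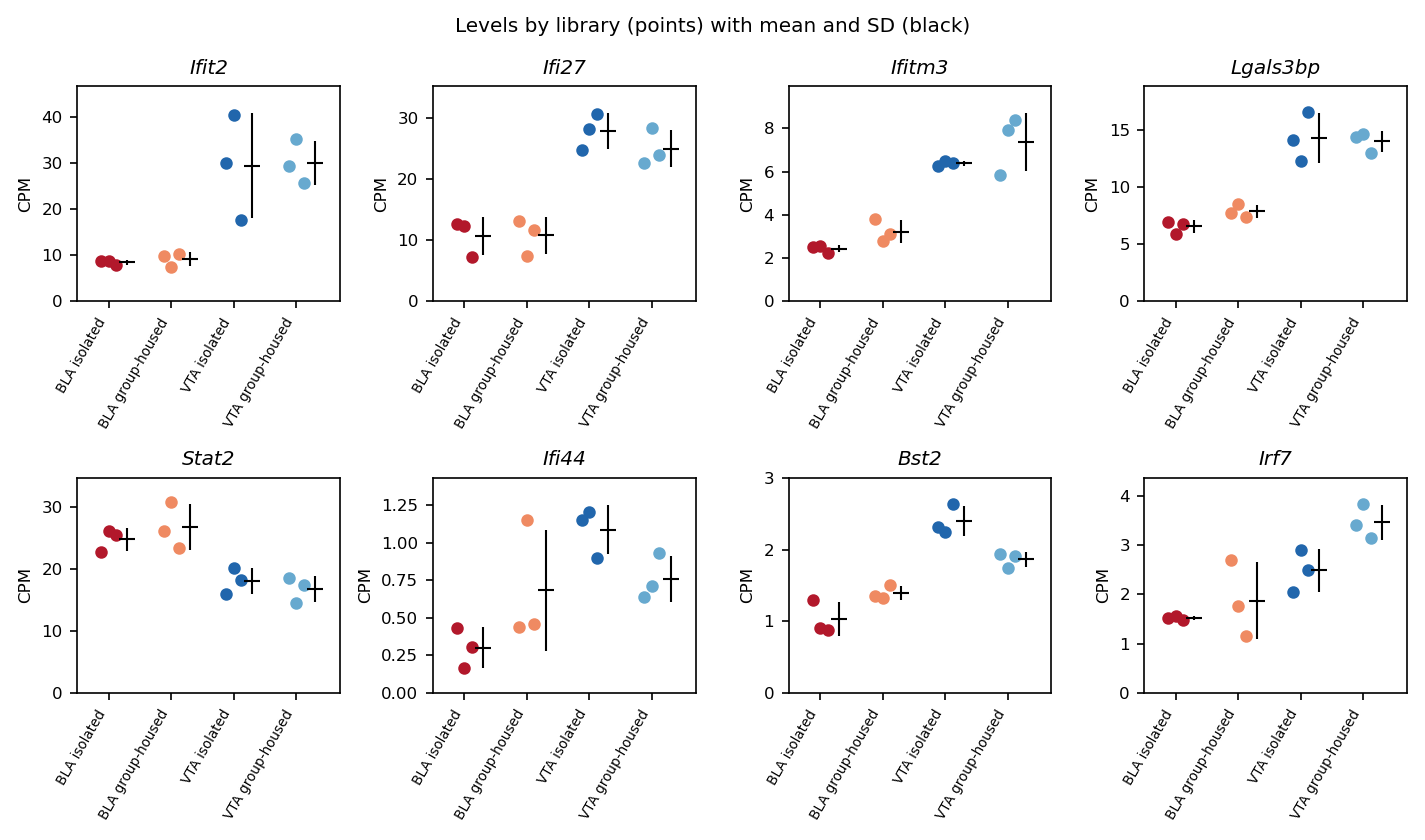
CPM of 8 interferon response genes in each library (points), with mean and SD of the 3 libraries of a group (black), groups from left to right being isolated and group-housed BLA and isolated and group-housed VTA. Ifit2, Ifi27, Ifitm3, Lgals3bp and Bst2 lie lower in all BLA libraries than in any VTA library, Stat2 lies higher in all BLA libraries, and Irf7 and Ifi44 overlap between regions.

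The guanylate-binding proteins (GBP) coat and disrupt the compartments of intracellular pathogens. All 6 passed the test as lower in BLA, against 24.1% of all genes tested, with log2 fold changes from -2.57 to -0.57. The groups did not overlap at 5 of the 6, against 14.1% of all genes with BLA below. Gbp3 gave -0.89 (SE 0.12) and Gbp7 -0.57 (SE 0.10). Gbp6 had the largest fold change of all members, at 0.135 ± 0.120 CPM in BLA and 0.883 ± 0.294 CPM in VTA, a log2 fold change of -2.57 (SE 0.45). It had at most 17 counts in a BLA library, and 70.7% of its 50-base words occur in other genes. Gbp4 overlapped between regions, and its call was lost in 4 of 22 alternative analyses. Among these was the fit without group-housed VTA library 3, where Gbp4 reached 5.31 CPM.

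The immunity-related GTPases (IRG) act on similar compartments, and all 4 were lower in BLA. Irgm1 and Irgm2, regulators of the family, gave log2 fold changes of -0.58 (SE 0.11) and -0.78 (SE 0.15). Igtp, which encodes IRGM3, gave -0.49 (SE 0.13). Iigp1, an effector, gave -0.81 (SE 0.31) and kept its direction in all 22 alternatives, but its call was lost in 10 of them. Of the 2 immunoproteasome subunits, which cut peptides for class I presentation, Psmb9 was lower in BLA (-1.15, SE 0.26) and Psmb8 did not pass (-0.43, SE 0.22).

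The regional difference was present under both housing conditions. Contrasting isolated BLA with isolated VTA libraries, 27 members passed the test, as did 8603 of the 25009 genes. The median log2 fold change was -0.88. Contrasting group-housed BLA with group-housed VTA libraries, 27 passed, as did 9311 genes, and the median was -0.81. Both contrasts were taken from the fit of all 12 libraries, so they share its filter, scaling and estimate of spread. Without the 5 libraries that stand apart in ribosomal RNA or choroid plexus reads, 32 passed, as did 8761 of 27585 genes, and the median was -0.95. These 3 comparisons were chosen after the data were seen.

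Genes with and without an ISRE core in the promoter were both mostly lower in BLA. The median log2 fold change was -0.78 over the 21 genes with a core and -0.99 over the 12 genes without one. The test was passed by 19 of the 21, among them Stat2 as higher in BLA, and by 10 of the 12. Over all genes tested, 47.7% passed. Both Stat2, higher in BLA, and Ifit1, lower in BLA, carry the core. Ifit2 and Ifi44 have promoters in the table without one.

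The parts of the interferon pathway around the members did not all follow the same direction. The interferons themselves were at or near a count of 0: none of 20 ligand genes passed the filter, 8 of them, Ifnb1 among these, had a count of 0 in every library, and the highest count of any ligand in a library was 12, for Ifng. Of 11 genes for receptors and the JAK-STAT pathway, 5 passed as lower and 4 as higher in BLA, a share of 81.82%. Over all genes tested, 47.7% passed, 24.1% as lower and 23.7% as higher. Ifnlr1, the receptor of interferon lambda, was lower (log2 fold change -2.14, SE 0.31). Ifngr2, a chain of the interferon gamma receptor, was higher (0.67, SE 0.10).

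Of 15 genes for nucleic acid sensing and its adaptors, 5 passed as lower and 2 as higher in BLA, a share of 46.67% against 47.7% of all genes tested. By sign, 9 had a fold change below 0 and 6 above 0. The first 3 by p were Mavs, the mitochondrial adaptor of RIG-I and MDA5 (-1.15, SE 0.08), Irf3, the factor that starts interferon transcription (-0.57, SE 0.10), and Ikbke, a kinase that activates it (-0.99, SE 0.18). Of 9 negative regulators tested, 4 passed as higher and 3 as lower in BLA, a share of 77.78%. Ptpn2, a phosphatase of JAK and STAT proteins (0.43), Socs3, a feedback inhibitor of cytokine receptors (0.98), and Irf2, which competes with IRF1 (0.42), were higher. Of 49 other interferon-induced genes tested, 27 passed as lower and 2 as higher in BLA, a share of 59.18%, with 42 below 0 and a median of -0.66. Rnf213, a large ubiquitin ligase, was lower (-1.14, SE 0.11), as was Cmpk2, a nucleotide kinase (-0.68, SE 0.08). Znfx1, a helicase-like RNA sensor, was higher (0.62, SE 0.07).

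Markers of several cell types also differed between the regions. Over all genes tested, 47.7% passed, 24.1% as lower and 23.7% as higher in BLA. Endothelial markers summed to 336.6 to 366.1 CPM in BLA and 400.7 to 585.9 CPM in VTA, with 17 of 18 passing as lower in BLA. Pericyte and fibroblast markers summed to 351.7 to 389.4 CPM in BLA and 436.5 to 701.9 CPM in VTA, with 11 of 14 passing as lower. Oligodendrocyte markers summed to 2883 to 5773 CPM in BLA and 7017 to 13870 CPM in VTA, and all 12 passed as lower. Astrocyte markers split: 11 of 14 passed as lower in BLA and 2 as higher, one of them the abundant transporter gene Slc1a2 (log2 fold change 0.89), and their sums overlapped, at 5001 to 5417 CPM in BLA and 4424 to 5511 CPM in VTA. All 15 choroid plexus markers had a fold change below 0, and 7 passed as lower in BLA, a share of 46.67%. The 20 microglia markers moved the other way, summing to 546.0 to 715.1 CPM in BLA and 362.6 to 616.6 CPM in VTA, with 14 passing as higher and 1 as lower in BLA. Markers of T cells and peripheral myeloid cells summed to 15.2 to 41.7 CPM in BLA and 12.4 to 20.3 CPM in VTA. Of 9 tested, 3 passed as lower and 1 as higher in BLA, a share of 44.44% against 47.7% of all genes tested. In this list Cd3e, Cd3d and S100a8 were at 0 in all group-housed BLA libraries. The part of these cell types in the difference of the members was not tested.

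In BLA, no interferon response gene passed the test for isolation. Of the 45 genes, 40 passed the filter, none had an edgeR adjusted p under 0.05, and none had an unadjusted p under 0.05. DESeq2 and limma voom called none either. Over all 22110 genes tested edgeR called 0 (0%), and 1.99% had an unadjusted p under 0.05. The fold change was below 0 in 36 of the 40 genes, against 49.2% of all genes tested, and its median was -0.17 on the log2 scale, against 0.00 over all genes. Genes measured in the same 6 libraries are not independent of each other. The summed level averaged 142.3 ± 4.52 CPM in isolated and 157.1 ± 12.5 CPM in group-housed libraries (SD, n = 3 each).

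The 5 members with the smallest p all had fold changes below 0. Ifi44, an effector of uncertain function, had 0.435, 0.163 and 0.304 CPM in isolated libraries and 0.442, 1.15 and 0.460 CPM in group-housed libraries. The groups did not overlap, by a narrow margin, and group-housed library 2, from 19 counts, was far above the rest. The log2 fold change was -1.09 (SE 0.56, edgeR adjusted p = 1). Ifitm3 had 2.52, 2.56 and 2.25 CPM in isolated libraries and 3.78, 2.79 and 3.12 CPM in group-housed libraries, with no overlap and a log2 fold change of -0.40 (SE 0.21).

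Eif2ak2 had 7.30, 5.99 and 6.35 CPM in isolated libraries and 7.62, 11.1 and 6.85 CPM in group-housed libraries. These overlapped, with group-housed library 2 the highest, and the log2 fold change was -0.36 (SE 0.20). Lgals3bp had 6.94, 5.91 and 6.77 CPM in isolated libraries and 7.73, 8.48 and 7.35 CPM in group-housed libraries. All isolated libraries lay below all group-housed ones, at -0.26 (SE 0.15). Rsad2 had 1.38, 1.32 and 0.941 CPM in isolated libraries and 1.91, 1.70 and 1.47 CPM in group-housed libraries, also without overlap, at -0.45 (SE 0.28). With Bst2, the groups stood apart at 5 of the 45 genes, all lower with isolation, against 2.96% of all genes with isolated libraries lower.

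Reads from ribosomal RNA loci took 1.32%, 0.2% and 18.58% of the isolated BLA libraries and 28.55%, 41.75% and 0.79% of the group-housed ones, and these values overlapped. Without the 3 libraries rich in them, which leaves 2 isolated libraries and 1 group-housed library assumed to vary like them, 26 of 42 members had a fold change above 0 and the median turned to 0.08. Ifi44, Ifitm3, Eif2ak2, Lgals3bp and Rsad2 each kept a negative fold change there and in all 15 alternatives, with ranges of -1.50 to -0.59, -0.49 to -0.28, -0.50 to -0.05, -0.30 to -0.18 and -0.56 to -0.12 in that order. Markers of cortical and amygdalar glutamatergic neurons had fold changes below 0 in 14 of 14, with a median of -0.22, and summed to 1762 to 3306 CPM in isolated and 2582 to 3372 CPM in group-housed BLA libraries. Oligodendrocyte markers lay above 0 in 11 of 12, with a median of 0.08, and microglia markers in 12 of 20. EdgeR called none of these markers, and their part in the members' values was not tested.

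Of 41 other interferon-induced genes tested in BLA, edgeR called none, and 27 lay below 0. An unadjusted p under 0.05 was found for 2 of them (4.88%), against 1.99% of all genes tested. Rtp4, a chaperone of membrane receptors, had 0.606, 0.555 and 0.577 CPM in isolated libraries and 1.49, 1.27 and 1.06 CPM in group-housed libraries, a log2 fold change of -1.12 (SE 0.32) that did not survive adjustment by edgeR (adjusted p = 1). Trim21, an antibody-binding ubiquitin ligase, lay in the other direction at 0.56 (SE 0.25), and Shisa5 at -0.23 (SE 0.13). No gene of the receptor, sensing or regulator lists was called.

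**Figure D4:**
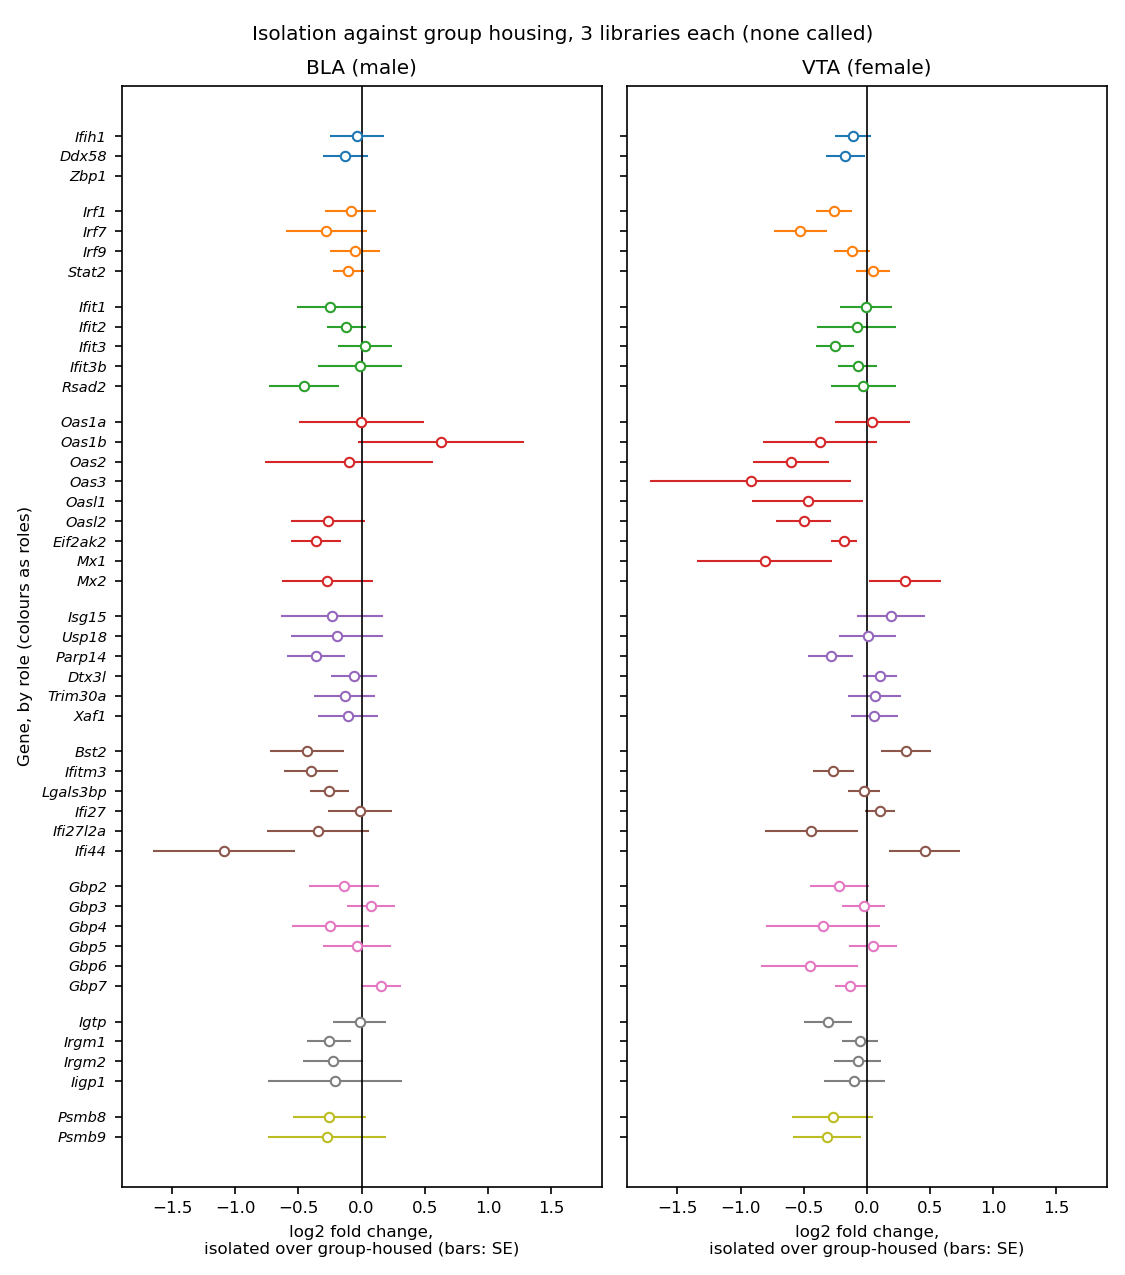
Log2 fold change, isolated over group-housed, of the interferon response genes in BLA (left) and VTA (right), with SE as bars and colours by role. None had an adjusted p under 0.05, 36 of 40 genes tested lie left of 0 in BLA and 32 of 44 in VTA, and genes without a point did not pass the filter in that region.

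In VTA, no interferon response gene passed the test for isolation either. Of the 45 genes, 44 passed the filter and edgeR called none, with 2 at an unadjusted p under 0.05, and DESeq2 and limma voom also called none. Over all 24082 genes tested edgeR called 1 (0.00415%), while 18.3% had an unadjusted p under 0.05, against 4.55% of the members. The fold change was below 0 in 32 members and above 0 in 12, against 50.2% of all genes below 0, with a median of -0.11. The summed level averaged 251.0 ± 17.8 CPM in isolated and 256.6 ± 13.4 CPM in group-housed libraries (SD, n = 3 each).

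Irf7 had the smallest p. It had 2.05, 2.91 and 2.50 CPM in isolated libraries and 3.42, 3.84 and 3.14 CPM in group-housed libraries. The groups did not overlap, and the log2 fold change was -0.53 (SE 0.21, edgeR adjusted p = 0.258). Oasl2 had 2.44, 3.21 and 2.53 CPM in isolated libraries and 3.49, 3.23 and 4.46 CPM in group-housed libraries. These almost met, and the log2 fold change was -0.50 (SE 0.21, edgeR adjusted p = 0.268). Oas2 had 0.429, 0.423 and 0.533 CPM in isolated libraries and 0.607, 0.629 and 0.785 CPM in group-housed libraries, with a log2 fold change of -0.60 (SE 0.30).

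Eif2ak2 had 11.0, 10.9 and 11.3 CPM in isolated libraries and 12.3, 12.4 and 11.6 CPM in group-housed libraries, without overlap, at -0.18 (SE 0.10). Irf1 had 6.52, 6.30 and 7.69 CPM in isolated libraries and 7.31, 7.49 and 8.81 CPM in group-housed libraries, with overlap, at -0.26 (SE 0.14). Bst2 was the member whose isolated libraries all lay above the group-housed ones. It had 2.33, 2.25 and 2.65 CPM in isolated libraries and 1.94, 1.75 and 1.92 CPM in group-housed libraries, at 0.31 (SE 0.20). In all, 4 of the 45 members had isolated libraries below all group-housed ones, against 11.6% of all genes, and 1 had them above, against 17.4%.

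In Ifit1, Ifit2 and Ifit3 the range among the isolated VTA libraries exceeded the difference between the group means. Ifit2 had 30.1, 40.5 and 17.8 CPM in isolated libraries 1, 2 and 3, and 29.3, 35.2 and 25.8 CPM in group-housed libraries, at -0.08 (SE 0.31). Ifit1 had 4.54, 6.15 and 3.90 CPM in isolated libraries and 4.66, 4.72 and 4.76 CPM in group-housed libraries. Ifit3 had 8.04, 8.56 and 6.36 CPM in isolated libraries and 8.57, 9.46 and 8.34 CPM in group-housed libraries. In each of the 3 genes isolated library 3, the one with most choroid plexus reads, was the lowest of the 6 VTA libraries.

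Markers of several cell types lay above 0 together in the VTA isolation response, and edgeR called none of them. Choroid plexus markers did so in 15 of 15, their median being 2.82 on the log2 scale, and summed to 49.84 to 3587 CPM in isolated and 42.68 to 65.85 CPM in group-housed VTA libraries. Cortical and amygdalar glutamatergic markers did so in 14 of 14, with a median of 1.17. Of these, 5 had an unadjusted p under 0.05, against 18.3% of all genes tested. At 7 of the 14 the isolated libraries lay above all group-housed ones, against 17.4% of all genes. These markers summed to 326.1 to 998.4 CPM in isolated and 244.4 to 274.5 CPM in group-housed VTA libraries. All 20 microglia markers, with a median of 0.25, and all 12 oligodendrocyte markers, with a median of 0.42, were above 0 as well. Without the 2 isolated libraries rich in choroid plexus markers, which leaves 1 isolated library assumed to vary like the others, the members' median was -0.03 with 20 of 45 above 0. Without isolated library 2 edgeR called 1200 genes, and none of them was a member. The part of these differences in the members' values was not tested. Among 49 other interferon-induced genes edgeR called none, with 6 (12.24%) at an unadjusted p under 0.05, against 18.3% of all genes tested. The first 3 by p were Uba7, the activating enzyme of ISG15 (-0.67, SE 0.23), Rnf213 (-0.50, SE 0.17) and Cmpk2 (0.24, SE 0.08).

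The isolation responses of BLA and VTA were compared directly, as the response in BLA minus that in VTA over all 12 libraries. None of 44 members tested was called by edgeR, DESeq2 or limma voom, and 2 had an unadjusted p under 0.05 in edgeR. Over all 25009 genes tested edgeR called 0 (0%), with 14.9% at an unadjusted p under 0.05. The difference was below 0 in 26 of the 44 members, against 55.3% of all genes, and its median was -0.10 over the members and -0.06 over all genes. Ifi44 had the smallest p, at a difference of -1.59 (SE 0.60, edgeR adjusted p = 0.304). Its response was -1.09 in BLA and 0.46 in VTA.

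In VTA, Ifi44 had 1.15, 1.21 and 0.899 CPM in isolated libraries and 0.636, 0.714 and 0.928 CPM in group-housed libraries, with the lowest isolated library just under the highest group-housed one. Bst2 followed with a difference of -0.80 (SE 0.33, edgeR adjusted p = 0.308). In BLA, Bst2 had 1.31, 0.914 and 0.881 CPM in isolated libraries and 1.35, 1.33 and 1.51 CPM in group-housed libraries, at -0.43 (SE 0.29), whereas isolated libraries were higher in VTA. Next by p were Mx1 at 1.95 (SE 1.17), Lgals3bp at -0.29 (SE 0.19) and Mx2 at -0.63 (SE 0.47). Leaving out 1 library moved Lgals3bp to -0.17, without isolated VTA library 3, and Mx2 to -0.42, without group-housed VTA library 2. In VTA, Lgals3bp had 14.1, 12.2 and 16.6 CPM in isolated libraries and 14.3, 14.7 and 12.9 CPM in group-housed libraries, which overlapped. All 14 cortical and amygdalar glutamatergic markers, all 20 microglia markers and all 12 oligodendrocyte markers had differences below 0, and edgeR called none of them.

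Mx1 and Mx2 belong to a family of antiviral dynamin-like GTPases, although the annotation lists Mx2 as a polymorphic pseudogene. Mx1 had 0.246, 0.131 and 0.0607 CPM in isolated BLA libraries and 0, 0 and 0.142 CPM in group-housed BLA libraries, all from at most 13 counts. Without group-housed BLA library 3, the others of that group being at 0, the fitted difference for Mx1 was 6.81, a value that depends on the prior count. In VTA it had 0.136, 0.261 and 0.15 CPM in isolated and 0.311, 0.153 and 0.476 CPM in group-housed libraries. Mx2 had 0.908, 0.767 and 1.43 CPM in isolated and 1.49, 1.45 and 0.832 CPM in group-housed BLA libraries. In VTA it had 1.85, 1.39 and 1.55 CPM in isolated and 1.33, 0.833 and 1.55 CPM in group-housed libraries. Isolated and group-housed libraries overlapped in both regions for both genes.

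Some members share sequence with other genes, and how the authors' counting treated such reads is not given in the sources used here. Of the 50-base words of Oas1a, 57.6% occur in Oas1g, and of those of Ifit3b, 44.5% occur in Ifit3. The shares were 12.7% for Gbp7 and 11.8% for Igtp, whose exons overlap those of Irgm2. On the opposite strand, Gm20496 covers 14.7% of the exons of Psmb8, Parp9 covers 8.0% of those of Dtx3l and Tap1 covers 5.8% of those of Psmb9. The libraries keep strand, but the strand setting of the counting is not given, so reads of these partners may be included.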

How the data were processed

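RNA of BLA and VTA punches was sequenced in 12 libraries, 3 per group. Titles gave the group and number of each, and the design text the sex. Trizol extraction and stranded, rRNA-depleted libraries are named in the labels' protocols. The authors deposited raw counts per gene, made with cutadapt, TopHat2, HTSeq and the mm10 build per the submitters' processing notes. The annotation used and the versions and parameters of these tools were not stated in the sources at hand.

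The filter was filterByExpr with a minimum count of 10 and a minimum total of 15. Scaling used TMM, and the test was the robust quasi-likelihood F test of edgeR 4.0.16 (R 4.3.3). Each region's 6 libraries were fitted alone for isolation, and all 12 for the difference of the responses and for BLA against VTA. P-values were adjusted by Benjamini-Hochberg over every gene tested, and "called" means an adjusted p under 0.05. SE is the log2 fold change divided by the square root of F. Total counts of 28278708 to 69276892 set the precision.

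The members and lists were chosen with earlier results of these data known. Members given with their spread over libraries (each value in groups of 3, and the lowest, median and highest in groups of 6) were the 5 with the smallest p in each comparison and the 5 with the highest level per exon length. Bst2 and the IFIT genes in VTA, and single members of each role, were picked after their values were seen. Other lists are given by counts and up to 3 genes by p, and some results that this rule selects are not reported here. Alternatives were DESeq2 1.42.0, voom with quality weights (limma 3.58.1), RLE factors, 2 other filters, counts without ribosomal RNA loci, a replicate block, one fit of all 12 libraries, and fits that left libraries out. Libraries of a group differed by more than sampling noise in all 12 pairs (chi-square over degrees of freedom at least 20.8). Promoters are RefSeq sequences. Figures were drawn with matplotlib 3.10.9.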

Additional observations from a re-analysis of the deposited data

How the results depend on the processing

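No interferon response gene passed the threshold for isolation in BLA, in VTA or for their difference under any alternative run. Against VTA, all 44 members tested kept their sign in 22 alternatives, and between 27 and 37 passed. Of 968 such values, 923 kept their side of the threshold, 35 fell short of it and 10 newly passed. The median for BLA against VTA moved to -0.95 without the 5 libraries that stand apart, a choice made after the data were seen, as were the comparisons within one housing condition.

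Counts over all genes varied more. In BLA, where edgeR called 0, DESeq2 called 6, the fit without a filter 8 and the fit without the 3 libraries rich in ribosomal RNA 1, and leaving out each library gave 0 to 4. The members' median in BLA turned to 0.0775 without those 3 libraries and ran from -0.2353 to -0.0854 when each library was left out. In VTA, where edgeR called 1, DESeq2 called 486, voom 2, the fit without a filter 17 and the fit without both choroid-rich isolated libraries 0, and leaving out each library gave 0 to 1200, the most without isolated library 2. The members' median in VTA ran from -0.2201, again without isolated library 2, to -0.0868 when each library was left out. It was -0.059 in the single fit of all 12 libraries and -0.03 without both choroid-rich isolated libraries. For the difference, where edgeR called 0, DESeq2 called 138 and the fit without a filter 1, and leaving out each library gave 0 to 487, the most without isolated VTA library 2. The cause of these shifts was not tested.

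Deviations of libraries with the same number had correlations of 0.172, -0.025 and 0.003 in BLA and -0.058, -0.027 and -0.02 in VTA. Between libraries with different numbers the correlations ran from -0.105 to 0.114, so 0.172, for number 1 in BLA, was the highest. The numbers were not taken as pairs in the main fits. With the replicate block, edgeR called 0 genes in BLA, 0 in VTA, 1 for the difference and 11437 for BLA against VTA, 35 of them members. Low counts limit Zbp1, Oas2, Oas3, Mx1, Oasl1 and Gbp6, each with 0 counts in at least 1 BLA library.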
